A study of Mus musculus with 117 samples.

Results

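Astrocyte enrichment was measured 70 d after a complete crush injury of the mouse spinal cord (SCI) in 8 RNA-sequencing libraries, out of 117 in the series. They were the 4 astrocyte and the 4 flow-through libraries of the Aldh1l1-CreERT2-RiboTag line titled for that time point, and the number in each title, from 1 to 4, ties both libraries of a mouse together. The mice were young adults, all labelled female, and carried 2 transgenic alleles. Aldh1l1-CreERT2 puts a tamoxifen-dependent Cre recombinase under control of the Aldh1l1 gene, which astrocytes use throughout the central nervous system, and RiboTag adds a hemagglutinin tag to the ribosomal protein Rpl22 in cells where Cre has acted. Forceps compressed the cord from the sides at a thoracic level, and the tissue taken was the short block around the lesion that holds the scar-like core and the astrocyte border on either side of it. Mice of the same line and sex without injury, and others at 42 d after SCI, gave 4 astrocyte and 4 flow-through libraries each and served for comparison, with the matching stretch of cord taken from uninjured animals. The 4 mice of a group are separate animals. The driver is not limited to border cells, so the tagged cells of the block included border astrocytes and those farther from the core, and the tamoxifen schedule of these mice is not given in the sources used here.

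In the RiboTag method, an antibody to the tag pulls tagged ribosomes out of a tissue lysate, so that the RNA recovered from the beads (the astrocyte library) is RNA that ribosomes of the tagged cells were carrying. The RNA that stays in solution (the flow-through library) comes from every cell in the block, including astrocyte RNA that the beads did not catch. Around a spinal cord lesion, astrocytes divide and form a dense border that walls off a core of inflammatory and fibrotic cells, and border cells are known for high levels of the filament protein Gfap. The ratio of astrocyte to flow-through RNA compares a transcript's share of the RNA on tagged ribosomes with its share of the RNA left from a block that also holds neurons, oligodendrocytes, vessels, fibroblasts and immune cells. In such bulk samples, fewer cells of a type and less RNA per cell cannot be told apart.

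Total counts on genes were 80320133 to 105786460 in astrocyte and 83123231 to 110420907 in flow-through libraries at 70 d, against a span of 59503373 to 123505722 in the 16 libraries used for comparison. Across genes, the log2 values of astrocyte libraries correlated at 0.969 to 0.984 with each other and those of flow-through libraries at 0.958 to 0.988. Libraries of the 2 fractions correlated at 0.753 to 0.815, so every library was closer to its own fraction than to the other. Rn45s, a ribosomal RNA precursor, took 10.2 to 13.6% of the counts of astrocyte libraries and 0.163 to 0.976% of those of flow-through libraries. Among the latter, the library of mouse 2 differed, with 0.976% against at most 0.469% in the others. Levels are given in CPM, the usual unit that sets a gene's reads against the library total, here scaled by the TMM method, and adjusted p-values are those of a quasi-likelihood fit in edgeR, corrected by Benjamini-Hochberg over all genes tested.

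Of 17632 genes tested at 70 d, 2413 (13.7%) had at least 2-fold more CPM in the astrocyte fraction and 3021 (17.1%) at least 2-fold less, at a false discovery rate (FDR) under 0.01. In 55.6% of all genes tested the 4 astrocyte values did not overlap the 4 flow-through values. The extremes were uneven: 280 of the higher genes and 919 of the lower genes differed by at least 8-fold. With libraries scaled by their totals alone, the same thresholds gave 1417 higher and 4638 lower genes, and the median log2 ratio over all genes tested moved from −0.03 to −0.48. Higher genes were thus 44.4% of those called under TMM and 23.4% under total counts, and directions below are relative to the TMM scale unless another is named.

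Astrocyte markers were far higher in the astrocyte libraries of all 4 mice. Aldh1l1 itself, the gene behind the Cre driver and an enzyme of folate metabolism, was at 248, 307, 227 and 278 CPM in the astrocyte libraries of mice 1 to 4 and at 16.9, 19.6, 22.5 and 24.98 CPM in their flow-through (log2 ratio 3.64, standard error 0.16, edgeR adjusted p = 4.0e-08). The fractions did not overlap, and the lowest astrocyte library held several times the level of the highest flow-through library. All 12 astrocyte markers were higher, with fitted log2 ratios from 1.78 to 4.32 and a median of 3.64, where the median of all genes tested was −0.03. Within single mice, the median of the list was 3.83, 3.90, 3.47 and 3.53 in mice 1 to 4. The highest ratios among them belonged to Aqp4, the water channel of astrocyte endfeet, Gja1, which builds gap junctions, and Slc4a4, a sodium bicarbonate cotransporter. Aqp4 was at 2906, 1587, 2169 and 2989.5 CPM in astrocyte and 119.7, 90.0, 119.8 and 147 CPM in flow-through libraries (log2 ratio 4.32, standard error 0.25, edgeR adjusted p = 1.8e-07), and the log2 ratios of Gja1 and Slc4a4 were 4.29 and 4.29 (standard errors 0.19 and 0.19, n = 4 mice).

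**Figure D1:**
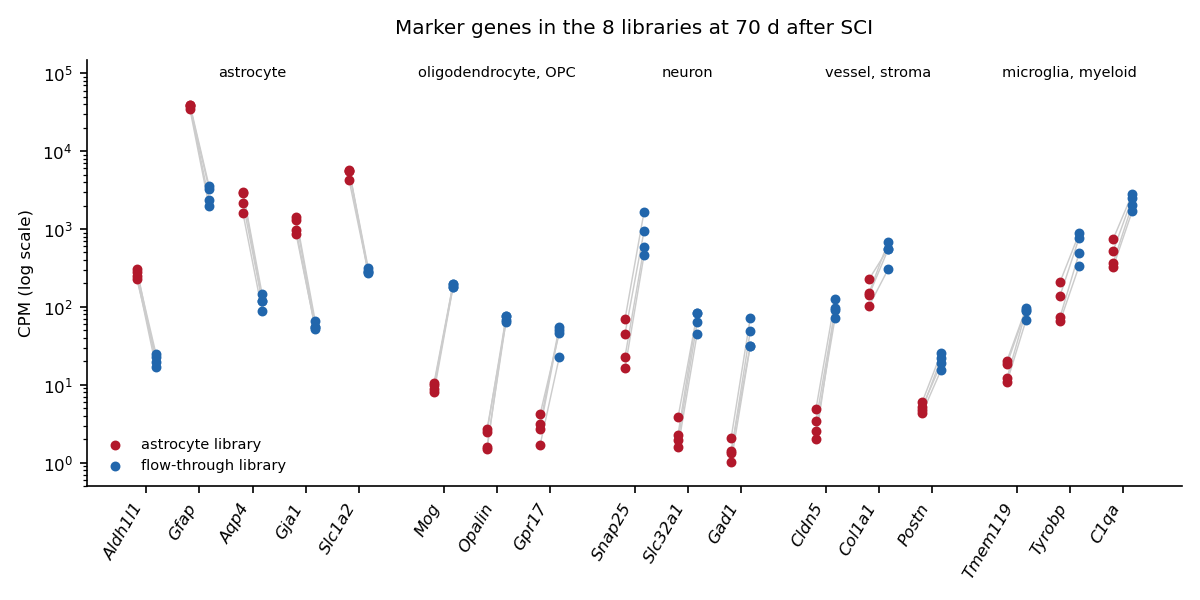
CPM on a log axis of 17 marker genes in the 8 libraries at 70 d after SCI, with a point for each library, astrocyte libraries in red, flow-through libraries in blue and a grey line joining the libraries of a mouse. Astrocyte markers fall from left to right in every mouse (Aldh1l1 from 227 to 307 CPM down to 16.9 to 24.98 CPM), while the markers shown for oligodendrocytes, OPCs, neurons, vessels, stroma and myeloid cells rise in every mouse.

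Markers of most other cells were lower in the astrocyte libraries. All 10 neuron markers were lower (median log2 ratio −4.15), as were all 10 oligodendrocyte markers (median −3.46) and 7 of 8 endothelial markers (median −3.06). Gad1, which makes the transmitter GABA, had 1.35, 2.07, 1.03 and 1.40 CPM in astrocyte and 48.6, 71.4, 31.4 and 31.6 CPM in flow-through libraries (log2 ratio −4.99, standard error 0.33). Mog, a myelin protein, had 8.94, 10.5, 9.89 and 8.04 CPM against 198, 198, 182 and 183 CPM (log2 ratio −4.37, standard error 0.12). Its 4 flow-through values lay within a narrow band, about 20-fold above the astrocyte values. Among oligodendrocyte progenitor (OPC) markers, 4 of 6 were lower, Neu4 and Gpr17 the most (log2 ratios −4.01 and −3.93). Of the pan-myeloid markers, 11 of 16 were lower and none was higher (median −1.62), and of the microglia markers 7 of 8 were lower. The exception in that list was Sall1, a transcription factor used to mark microglia, at 67.6, 43.3, 56.5 and 68.7 CPM in astrocyte and 25.2, 22.6, 23.9 and 28.4 CPM in flow-through libraries (log2 ratio 1.22, standard error 0.16, edgeR adjusted p = 6.6e-05). Under total-count scaling its log2 ratio was 0.77, below 2-fold.

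Some lists did not follow this pattern. Neutrophil markers, which code for granule proteins and enzymes of these short-lived blood cells, were higher in astrocyte libraries for 9 of 12 genes, with a median log2 ratio of 2.38. Their summed level ranged from 207 to 743 CPM in astrocyte and from 45.5 to 111 CPM in flow-through libraries. S100a9 was at 74.6, 319.6, 258 and 61.3 CPM in astrocyte and 13.1, 35.9, 35.2 and 10.2 CPM in flow-through libraries, so that mice differed several-fold in level while each mouse had more of it on the beads. In uninjured mice the same list had a mean of the per-mouse medians of 2.55 ± 0.16 (SD, n = 4), and none of its genes differed in ratio between 70 d and uninjured mice in the test described below. The hemoglobin gene Hbb-bs was also higher (log2 ratio 3.36, standard error 0.64), as the only one of 5 tested erythrocyte genes past both thresholds. What bound these transcripts to the beads was not tested.

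Markers of Schwann cells, stroma, macrophages and lymphocytes held calls in part of each list. Over all genes tested, 13.7% were higher and 17.1% lower. The macrophage, T cell and B cell lists held no larger shares of calls than that. In them 10 of 12, 6 of 8 and 7 of 8 genes were not called. Stromal markers had 4 of 9 genes lower, led by Rgs5, a pericyte gene (log2 ratio −2.45), and Postn, a matrix protein of injury-activated fibroblasts (−2.04). Of the Schwann cell list, Sox10, a transcription factor that oligodendrocytes also use, was lower (log2 ratio −3.10), as was Ncmap, a protein of myelin (−1.35). Cdh19, a cadherin counted as a Schwann cell marker, was higher, at 17.7, 13.2, 13.7 and 17.7 CPM in astrocyte and 3.68, 2.94, 3.62 and 2.88 CPM in flow-through libraries (log2 ratio 2.23). Monocyte-derived macrophage markers had a median log2 ratio of 0.07, which turned to −0.38 under total-count scaling, with Ccr2, a chemokine receptor of monocytes, higher (1.30) and Fn1, fibronectin, lower (−1.37). Of 8 T cell genes, Trac, a constant part of the T cell receptor, was higher (log2 ratio 2.01) and Cd8a lower (−1.25), and of 8 B and plasma cell genes tested only Ighm, the heavy chain of IgM, was called (−1.10). The astrocyte mean of Trac was 27.2 CPM in uninjured mice and 20.1 CPM at 70 d. Its ratio was lower at 70 d than in uninjured mice (difference −1.56, edgeR adjusted p = 1.4e-04, by the test described below). Leaving out single libraries ended the call of Cd8a in 5 of 8 fits (edgeR adjusted p up to 0.017, without the flow-through library of mouse 4) and that of Ighm in 1 of 8 (log2 ratio −0.98 without the flow-through library of mouse 1), and total-count scaling took Ccr2 below 2-fold (0.84).

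By the naming rule, which asks for well-covered genes, the 8 largest ratios were those of Lars2, Slc39a12, Itgb8, Gpam, Pcdhgc5, Zbtb20, Nkx6-1 and Nebl. Slc39a12, a zinc transporter, was at 391, 315, 284 and 362 CPM in astrocyte and 11.1, 12.1, 9.15 and 12.2 CPM in flow-through libraries (log2 ratio 4.90, standard error 0.16, edgeR adjusted p = 1.4e-08). Itgb8, an integrin subunit that activates latent TGF-beta, was at 30.8, 21.01, 16.5 and 32.5 CPM and 0.903, 0.792, 0.720 and 0.979 CPM (log2 ratio 4.87, standard error 0.26, edgeR adjusted p = 1.2e-07). The fractions were separated by more than 10-fold in every mouse for both genes. Gpam, which starts triglyceride synthesis, had a log2 ratio of 4.71, Pcdhgc5, a clustered protocadherin, of 4.60, and Nebl, an actin-binding protein, of 4.39. Zbtb20 and Nkx6-1 are transcription factors of astrocyte development, the latter of the ventral spinal cord, and had log2 ratios of 4.58 and 4.39.

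Lars2, a mitochondrial leucyl-tRNA synthetase, had the largest ratio of the named genes, at 5897, 9003, 6048 and 5331 CPM in astrocyte and 96.5, 370.7, 161 and 43.6 CPM in flow-through libraries. Its counts moved with those of the ribosomal RNA precursor: they were 3.09 to 5.41% of the Rn45s counts in all 8 libraries, although Rn45s itself differed more than 10-fold between the fractions. The level of Lars2 is therefore given as uncertain, and the part of ribosomal RNA in it was not tested.

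The highest levels per length among enriched genes belonged to Mt1, Mt2, Gfap, Mt3 and Dbi. Scaled by exon length, their astrocyte means were 12710.4 CPM per kb for Mt1, 10731 for Mt2, 9229.8 for Gfap, 6113 for Mt3 and 5803 for Dbi. The metallothioneins Mt1, Mt2 and Mt3 bind zinc and copper, and Dbi binds acyl-CoA esters and gives rise to peptides that act on GABA receptors. Gfap, the defining filament protein of astrocytes, took the largest share of all reads among them, with 38785, 34678, 39645 and 37743 CPM in the astrocyte libraries of mice 1 to 4 and 2344, 1991, 3570.2 and 3288 CPM in their flow-through (log2 ratio 3.73, standard error 0.22, edgeR adjusted p = 2.2e-07). Gfap lies on chromosome 11 of GRCm38 (mm10) from 102887336 to 102897200.

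At the other end stood neuronal peptides and RNAs that do not use cytoplasmic ribosomes. The 8 lowest ratios by the same rule were those of Bc1, Sst, COX2, Cartpt, Tac2, Resp18, ATP6 and ND6. Bc1, a short noncoding RNA of neuronal dendrites, was at 7.67, 11.3, 9.96 and 6.82 CPM in astrocyte and 1017, 1238, 614 and 603 CPM in flow-through libraries (log2 ratio −6.63, standard error 0.31, edgeR adjusted p = 5.7e-08). Sst, Cartpt and Tac2 code for neuropeptides of dorsal horn neurons and Resp18 for a secretory granule protein, with log2 ratios of −5.66, −5.63, −5.62 and −5.47. COX2, ATP6 and ND6 are genes of the mitochondrial genome, translated by ribosomes inside the organelle. Looked at together after these values were seen, all 13 mitochondrial protein genes were lower, with log2 ratios from −5.64 to −3.26. ATP8, at −3.26, and ND4L, at −3.76, had astrocyte means of 0.0448 and 0.0377 CPM, where counts were too few to give an exact ratio. COX2, ND3, COX3 and ATP6 also had low astrocyte means, at 0.668, 0.529, 0.353 and 0.338 CPM, so their ratios are less certain. Their flow-through means were 11.7 to 32.6 CPM, against 5164 CPM for COX1, and the reason was not tested. ND6 was at 42.9, 32.7, 38.4 and 53.9 CPM in astrocyte and 1632, 1715, 1894 and 1552 CPM in flow-through libraries, with no overlap. Nuclear long noncoding RNAs, which ribosomes do not translate, were lower for 8 of 11 genes (median −3.06), led by Rian (−4.37), Snhg11 (−4.22) and Mirg (−3.86). Beside them, neuron markers had a median log2 ratio of −4.15, and what set the low ratios of these RNAs was not tested. Messenger RNAs of cytoplasmic ribosomal proteins, also grouped after their values were seen, were lower for 59 of 80 genes (median −1.30) and higher for none.

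Genes for functions that astrocytes carry out for neurons were mostly higher. Of 12 genes for uptake of glutamate, GABA and other amino acids, 9 were higher (median log2 ratio 2.45). Slc1a2, the main glutamate transporter, was at 5577, 5745, 4244 and 5568 CPM in astrocyte and 269.9, 316, 278 and 293 CPM in flow-through libraries (log2 ratio 4.17, standard error 0.16, edgeR adjusted p = 1.9e-08). Slc6a11, a GABA transporter, and Slc7a10, which exchanges serine and glycine, had log2 ratios of 4.20 and 4.07. Of 15 genes of endfeet, potassium buffering and cell junctions, 14 were higher (median 2.80), among them the claudin Cldn10 (3.98). Gjb2, a connexin that meningeal fibroblasts also make, was the exception, at 49.9, 33.3, 47.5 and 48.1 CPM in astrocyte and 131, 65.7, 117 and 126 CPM in flow-through libraries (log2 ratio −1.32, standard error 0.21).

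Receptors, transcription factors and fuel metabolism followed. Of 15 receptor and calcium genes, 9 were higher and 3 lower. Adora2b, an adenosine receptor, Adra1a, an adrenergic receptor, and Ntsr2, a neurotensin receptor, had log2 ratios of 3.51, 3.45 and 3.39. The metabotropic glutamate receptors Grm5 and Grm3 and the adrenergic receptor Adra1b were lower (−2.39, −1.11 and −1.01). Adra1b was no longer called in 4 of 8 fits that left out a library (log2 ratio −0.94 without the flow-through library of mouse 1). Of 20 transcription factors of astrocytes, 13 were higher and none lower (median 2.22), with Id4, an inhibitor of basic helix-loop-helix factors, at 432, 368, 437 and 388 CPM against 29.1, 32.5, 28.5 and 33.7 CPM (log2 ratio 3.69). Of 15 genes of glycogen, glycolysis and lactate handling, 12 were higher (median 2.00), including the glycolytic enzyme Aldoc (3.65), the glycogen phosphorylase Pygm (3.27) and Ppp1r3g, which steers glycogen synthesis (3.85). The lactate exporter Slc16a3 was the lower gene of this list (−1.95).

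The filament, signalling and synapse lists were mixed. Of 13 intermediate filament genes, 3 were higher, namely Gfap, Vim and Nes, the filaments of reactive astrocytes, and 5 were lower, among them the neurofilaments Nefh, Nefm and Nefl (log2 ratios −3.68, −3.65 and −3.54). Vim was at 2239, 2676, 1896 and 2309.6 CPM in astrocyte and 602, 433, 853 and 878 CPM in flow-through libraries (log2 ratio 1.70). Of 23 growth factor and cytokine genes, 10 were higher and 5 lower. Fgfr3, a receptor for fibroblast growth factors, was at 506, 454, 399 and 553 CPM against 26.2, 25.6, 25.8 and 30.7 CPM (log2 ratio 4.12), and the BMP receptor Bmpr1b had a log2 ratio of 3.74. Fgf2, a growth factor with 4.47, 3.72, 5.35 and 6.60 CPM in astrocyte libraries, was at 0.153, 0.0198, 0.310 and 0.0548 CPM in flow-through, where its counts were too few to give an exact ratio. The ligands Tgfb1, Igf1 and Dll1 were lower (log2 ratios −1.91, −1.72 and −2.08). Of 20 genes acting on synapses and axons, 9 were higher, with Gpc5, a glypican, Sparcl1, which promotes synapses, and Thbs2, a thrombospondin, at 3.94, 3.61 and 2.21. The guidance genes Slit2, Ephb1 and Efnb1 were lower (−1.52, −1.47 and −1.26).

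Lipid genes were mixed. Acsbg1, an acyl-CoA synthetase, Lcat, which esterifies cholesterol on lipoproteins, and Fabp7, a fatty acid binding protein of astrocytes, were higher (log2 ratios 4.27, 3.14 and 2.90), among 6 higher and 4 lower of 14 lipid transport genes tested. Apoc4 and Apoc1, small apolipoproteins, and Abcg1, a cholesterol exporter, were lower (−3.23, −1.98 and −1.18). The median of this list was 0.24 and changed sign under total-count scaling (−0.20), as did that of 16 cholesterol synthesis genes (0.44 and −0.03). Of the latter, only Idi1, an isomerase of the pathway, was higher (1.77). Its call was lost in 3 of 8 fits that left out a library, with an edgeR adjusted p of up to 0.012 (without flow-through of mouse 1), and under total-count scaling (log2 ratio 1.30, edgeR adjusted p = 0.019).

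Genes that the study named for border-forming astrocytes were mostly enriched at 70 d. The list was drawn up by the study on these and related libraries, so its direction is no independent evidence. Of its 26 genes, 21 were at least 2-fold higher in astrocyte libraries and 1 lower, with a median log2 ratio of 2.37 and per-mouse medians of 2.57, 2.74, 2.20 and 2.34. Tgm1, a transglutaminase that crosslinks protein in skin, was at 50.5, 72.5, 88.9 and 83.2 CPM in astrocyte and 3.54, 3.78, 10.1 and 6.78 CPM in flow-through libraries (log2 ratio 3.58, standard error 0.35, edgeR adjusted p = 8.0e-06). Ptx3, a soluble pattern recognition protein, was at 35.1, 61.1, 56.4 and 54.3 CPM against 2.96, 5.84, 5.43 and 5.37 CPM (log2 ratio 3.38, standard error 0.25, edgeR adjusted p = 1.0e-06), and Igfbpl1, which binds insulin-like growth factors, at 32.0, 65.9, 71.6 and 113 CPM against 4.05, 6.91, 6.71 and 11.9 CPM (log2 ratio 3.23, standard error 0.41, edgeR adjusted p = 5.5e-05). In each of these genes every astrocyte library exceeded every flow-through library.

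The same list held secreted, protective and filament genes. C3, the central complement component, had a log2 ratio of 3.22, A2m, a broad protease inhibitor, of 3.22, Prdx6, a peroxide-reducing enzyme, of 3.23, Lcn2, an iron-scavenging lipocalin, of 3.02, and Cdsn, an adhesion protein of skin, of 3.00. Lxn, a carboxypeptidase inhibitor (2.96), Padi2, which converts arginine to citrulline (2.91), Fxyd1, a regulator of the sodium pump (2.44), Serpina3n, a serine protease inhibitor (2.38), Cd44, a hyaluronan receptor (2.36), Clu, an extracellular chaperone (2.34), and Hspb1, a small heat shock protein (2.28), lay between 4-fold and 8-fold. Cxcl10, a chemokine for T cells, had a log2 ratio of 2.27 with a wide spread between mice, from 24.02 to 104 CPM in astrocyte libraries. Id3, a partner of Id4, Timp1, an inhibitor of metalloproteinases, and S100a6, a calcium-binding protein, were lower on the scale (1.67, 1.498 and 1.28). Leaving out a library ended the call of Cxcl10 in 4 of 8 fits (edgeR adjusted p up to 0.023, without the flow-through library of mouse 2). Its call was also lost under total-count scaling (edgeR adjusted p = 0.016) and with no filter beyond 1 count (0.021), and total-count scaling took S100a6 below 2-fold (0.82). Gpx1, C4b and Cryab passed the FDR at less than 2-fold (0.95, 0.88 and 0.76), and none of the 3 passed it under total-count scaling.

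Lgals3 and Spp1 were the exceptions. Lgals3, a galectin that macrophages make in quantity, was at 412.5, 555, 674 and 652 CPM in astrocyte and 307, 267, 692 and 661 CPM in flow-through libraries, with overlapping ranges (log2 ratio 0.23, standard error 0.31, edgeR adjusted p = 0.55). Spp1, osteopontin, another product of activated macrophages, was at 209, 259, 374.3 and 290.4 CPM against 663, 776, 1207 and 1069.6 CPM (log2 ratio −1.74, standard error 0.23, edgeR adjusted p = 6.8e-05). The pan-myeloid markers summed to 1406 to 3706 CPM in astrocyte and 5759 to 10560.4 CPM in flow-through libraries, and their part in either gene's level was not tested. Of 9 genes of perimeningeal astrocytes, 8 were higher and 7 of the 9 are also in the border list.

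**Figure D2:**
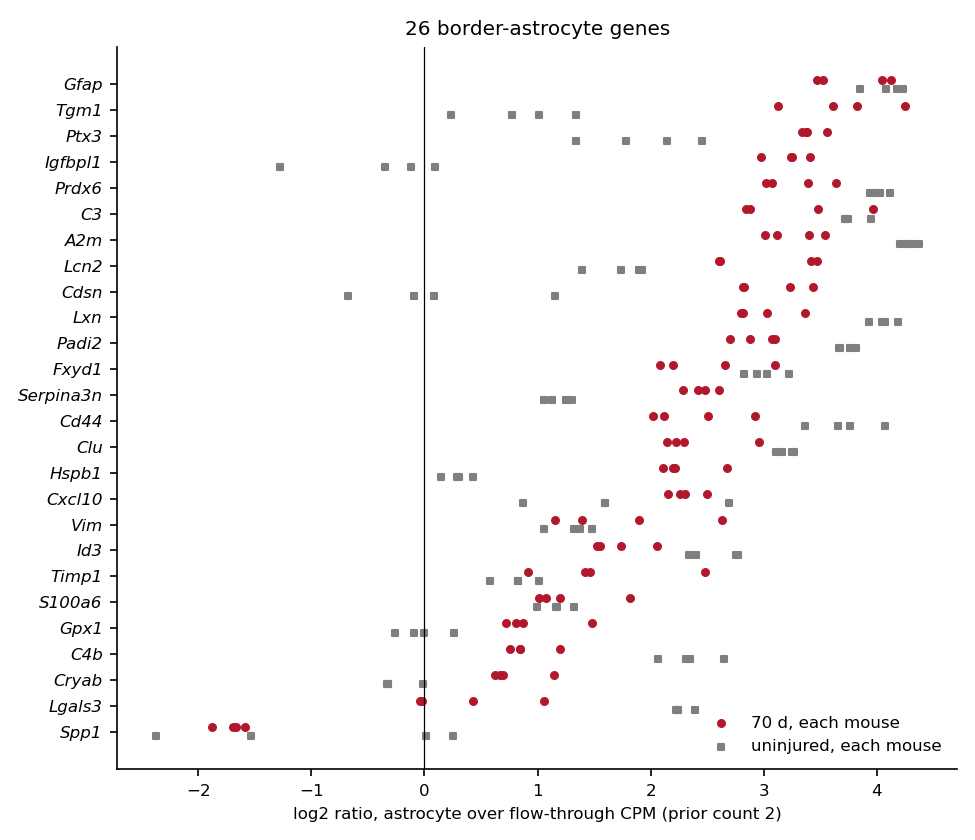
Log2 ratio of astrocyte over flow-through CPM (prior count 2) of the 26 border-astrocyte genes, with a red point for each mouse at 70 d and a grey square for each uninjured mouse. At 70 d all genes but Lgals3 and Spp1 lie right of 0 in every mouse, and the points of Tgm1, Igfbpl1, Cdsn and Hspb1 lie right of their uninjured squares while those of C4b, Lgals3 and Cd44 lie left of them.

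Immune genes were called in both directions. Of 18 complement genes, C3 alone was called higher, at 3371, 4187, 3565 and 3486 CPM in astrocyte and 302, 267, 497 and 473 CPM in flow-through libraries, and 8 were lower. The lower genes included C1qa and C1qc, subunits of C1q and products of microglia, with log2 ratios of −2.24 and −2.02, and Cd55, a brake on complement (−1.91). Of 20 chemokines, 3 were higher, 4 lower and 13 not called, where the shares over all genes tested were 13.7% higher and 17.1% lower. The list median was 0.17 and turned to −0.29 under total-count scaling. Cxcl14, Cxcl10 and Cxcl5 were higher (log2 ratios 2.23, 2.27 and 2.67), Cxcl5 being a chemokine for neutrophils. Ccl3, Ccl4 and Ccl5, ligands that draw monocytes and T cells, were lower (−2.68, −2.97 and −1.63), as was Cxcl16. Of 20 interferon-stimulated genes, Ifit2 and Gbp3 were higher (1.65 and 1.18) and Irf7 lower (−1.48). The other 17 were not called, so both shares were below those over all genes tested. Leaving out a library ended the call of Cd55 in 2 of 8 fits (edgeR adjusted p up to 0.0104, without the astrocyte library of mouse 4) and that of Gbp3 in 1 of 8 (log2 ratio 0.96, without that of mouse 1). Total-count scaling ended the calls of Gbp3 and Cxcl10 (edgeR adjusted p = 0.029 and 0.016). None of 12 MHC class I genes was called (median −0.24).

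MHC class II genes, which present peptides to helper T cells and are otherwise known from dendritic cells, macrophages and B cells, were higher in astrocyte libraries for 4 of 10 genes and lower for 1. H2-Ab1 was at 451, 402, 530.2 and 462 CPM in astrocyte and 215, 105, 127 and 135 CPM in flow-through libraries (log2 ratio 1.64, standard error 0.20, edgeR adjusted p = 5.1e-05). H2-Eb1 was at 346, 323, 391 and 356 CPM against 161, 93.1, 105 and 123 CPM (log2 ratio 1.53, standard error 0.16, edgeR adjusted p = 1.6e-05), and Cd74, the invariant chain, at 1105, 913, 1247 and 1135 CPM against 638, 268, 374.4 and 432 CPM (log2 ratio 1.34, standard error 0.23, edgeR adjusted p = 5.1e-04). The fractions did not overlap for these 3 genes. Under total-count scaling the log2 ratio of Cd74 was 0.88, below 2-fold. H2-Ob, part of a regulator found mainly in B cells, was lower (−1.59). Beside them, the monocyte-derived macrophage markers summed to 1620.5 to 5060.04 CPM in astrocyte and 2793 to 7515 CPM in flow-through libraries, the B and plasma cell markers to 103 to 162 CPM and 185 to 281 CPM, while Ms4a1 (CD20), a defining B cell marker too low to be tested, was at 0 in the astrocyte library of mouse 4 and in the flow-through libraries of mice 1 and 3. Their part in the class II levels was not tested.

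Because several class II genes had higher ratios than in uninjured mice, with values given further on, the promoters of 4 of them are shown, from 250 bases before to 50 bases after the RefSeq start on GRCm38.p6. Of the 10 genes, 7 were searched. The RefSeq promoters used here held no entry for H2-Ab1 and Ciita, and the chromosome of Cd74 was left out of the search. Promoters were searched on both strands for GATTGG, the core of the Y box that the factor NF-Y binds in class II promoters. Matches are in capitals, and the second match in H2-Eb1, on the other strand, reads CCAATC. H2-Aa is at chr17:34287774-34288073 (strand -), H2-Eb1 at chr17:34305617-34305916 (strand +), H2-DMb1 at chr17:34152941-34153240 (strand +) and H2-Ob at chr17:34238655-34238954 (strand +), each sequence 5′ to 3′ on the strand of its gene.
H2-Aa: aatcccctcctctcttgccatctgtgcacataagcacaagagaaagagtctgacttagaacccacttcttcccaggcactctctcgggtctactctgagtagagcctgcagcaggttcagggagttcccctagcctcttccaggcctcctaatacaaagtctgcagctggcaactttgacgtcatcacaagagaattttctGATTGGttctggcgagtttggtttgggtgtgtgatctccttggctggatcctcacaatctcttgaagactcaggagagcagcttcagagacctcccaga
H2-Eb1: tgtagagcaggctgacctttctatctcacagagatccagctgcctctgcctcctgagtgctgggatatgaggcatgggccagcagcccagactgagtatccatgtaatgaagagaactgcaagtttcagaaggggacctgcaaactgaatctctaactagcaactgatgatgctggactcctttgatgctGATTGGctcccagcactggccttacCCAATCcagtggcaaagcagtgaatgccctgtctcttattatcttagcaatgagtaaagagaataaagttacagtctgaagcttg
H2-DMb1: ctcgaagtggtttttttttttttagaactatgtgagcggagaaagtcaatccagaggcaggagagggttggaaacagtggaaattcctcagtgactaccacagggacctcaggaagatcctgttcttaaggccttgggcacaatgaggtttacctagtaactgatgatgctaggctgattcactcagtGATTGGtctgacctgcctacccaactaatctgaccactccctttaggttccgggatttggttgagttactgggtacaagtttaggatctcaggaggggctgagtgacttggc
H2-Ob: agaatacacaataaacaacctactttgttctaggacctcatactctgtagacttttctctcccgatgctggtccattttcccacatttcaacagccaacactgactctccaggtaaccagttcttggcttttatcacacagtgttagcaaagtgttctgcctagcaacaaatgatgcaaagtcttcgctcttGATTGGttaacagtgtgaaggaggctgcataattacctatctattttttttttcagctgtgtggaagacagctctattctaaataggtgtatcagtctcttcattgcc
In these 4 promoters the first GATTGG in gene direction began between 49 and 62 bases before the start. All 7 genes searched held the motif in at least 1 promoter, for H2-DMa only at the later of its 2 starts, at position −199. Of the 32851 promoters of all genes of the same length, 16.1% held the motif. That share counts single promoters, whereas the 7 counts genes with a match at any start. H2-Aa and H2-Eb1 were higher in astrocyte libraries, H2-DMb1, picked after its value was seen, was not called (log2 ratio −0.08) and H2-Ob was lower, so genes with the motif were found on either side.

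Matrix genes divided between the fractions. Of 11 chondroitin sulfate proteoglycans and tenascins, which are known to restrain axon growth, 4 were higher and 5 lower. Bcan, brevican, was at 1165, 1088, 1174 and 1121 CPM in astrocyte and 105, 96.0, 119.8 and 130.4 CPM in flow-through libraries (log2 ratio 3.31, standard error 0.13, edgeR adjusted p = 2.6e-08), and Ptprz1, a receptor phosphatase, and Ncan, neurocan, had log2 ratios of 3.12 and 2.25. Acan, aggrecan of perineuronal nets, was at 0.163, 0.640, 0.278 and 0.449 CPM against 9.82, 9.58, 4.75 and 6.53 CPM (log2 ratio −4.36), and the link proteins Hapln1 and Hapln2 were lower as well (−3.34 and −3.20). Of 19 fibrotic matrix genes, 12 were lower, led by Col6a2, Col8a1 and Col6a3 (−2.90, −2.77 and −2.43), and only Sparc, a collagen-binding protein, was higher (2.85). Col1a1, the main collagen of scars, was at 227, 103, 143 and 151 CPM in astrocyte and 560.1, 305, 548 and 684 CPM in flow-through libraries (log2 ratio −1.77, standard error 0.28). Of 13 basement membrane genes, 6 were lower, among them Lama1, Lama4 and Col4a1 (−2.60, −1.52 and −1.49), and Nid2 was higher (1.14). Hapln1 lost its call in 3 of 8 fits that left out a library (edgeR adjusted p up to 0.014, without the astrocyte library of mouse 1) and Nid2 in 1 of 8 (log2 ratio 0.95 without flow-through of mouse 2), and Nid2 also under total-count scaling (log2 ratio 0.69, edgeR adjusted p = 0.025).

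Proteases, their inhibitors and antioxidant genes leaned to the astrocyte side. Of 22 protease and inhibitor genes, 10 were higher, with A2m at 1397, 1372, 1526 and 1479.5 CPM against 132, 117, 189 and 171 CPM, and 4 were lower, including Mmp3, a stromelysin, Serpinf1, an inhibitor of vessel growth, and Plau, urokinase (−2.48, −2.15 and −1.91). The call of Mmp3 was lost in 2 of 8 fits that left out a library (edgeR adjusted p up to 0.011, without the astrocyte library of mouse 1) and with no filter beyond 1 count (log2 ratio −2.48, just past the FDR threshold). Of 23 antioxidant and metal genes, 10 were higher and only the ferritin chains Fth1 and Ftl1, which store iron, were lower. Prdx6 was at 6102, 6345, 6674 and 6647 CPM in astrocyte and 581, 511, 823 and 788 CPM in flow-through libraries, and Fth1 at 1364, 1167, 2066 and 1838.2 CPM against 8808, 5520.1, 12561 and 13287 CPM (log2 ratio −2.67).

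Of 15 genes of motile cilia, 4 were higher and none lower (median 0.54, and 0.08 under total-count scaling). Foxj1, the master transcription factor of motile cilia, was at 215, 195, 209 and 200.3 CPM in astrocyte and 51.3, 44.1, 45.5 and 50.8 CPM in flow-through libraries (log2 ratio 2.07, standard error 0.10, edgeR adjusted p = 5.7e-08). Tekt1 and Cfap126, parts of the cilium, had log2 ratios of 2.36 and 1.70. Ependymal cells of the central canal carry such cilia, and of their 6 markers Foxj1 and Dynlrb2 were higher, with a list median of 0.06 that became −0.40 under total-count scaling. Tmem212 and Pifo, ependymal markers that are not in the cilium list, had log2 ratios of −1.20 and −1.11 and were not called at 70 d. With mice as a block, Tmem212 was called (log2 ratio −1.27, edgeR adjusted p = 9.9e-04). Both genes are named here after their values were seen.

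**Figure D3:**
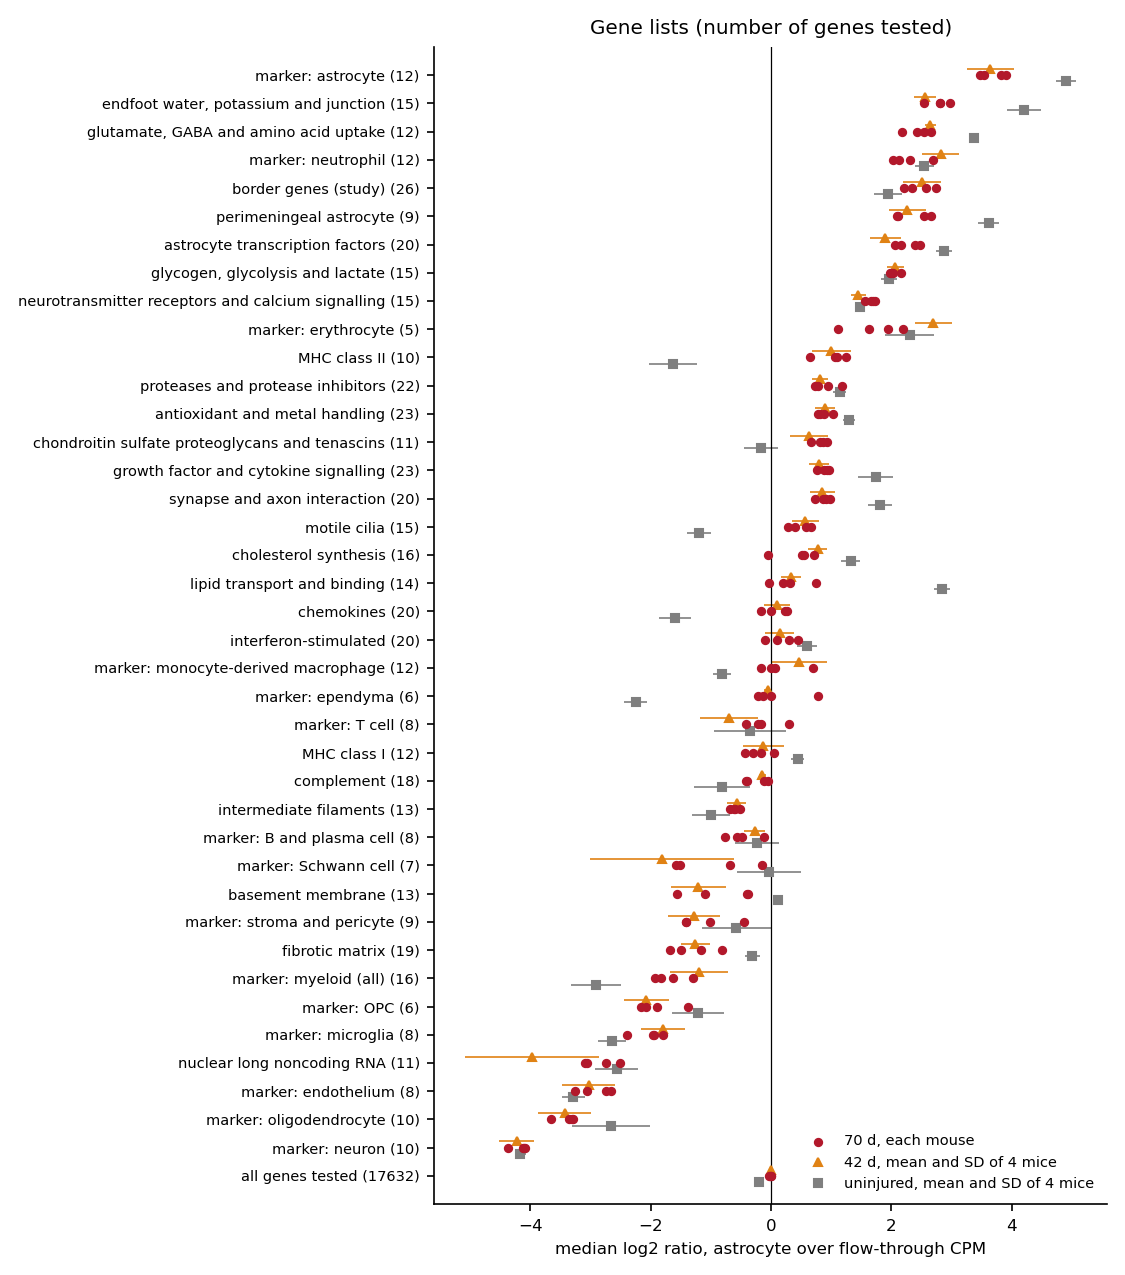
Median over each gene list of the log2 ratio of astrocyte over flow-through CPM, with a red point for each of the 4 mice at 70 d and the mean ± SD of 4 mice at 42 d (orange triangles) and uninjured (grey squares). Number of tested genes in parentheses. Astrocyte markers have the highest and neuron markers the lowest medians at 70 d, and uninjured values lie above those of 70 d for astrocyte markers and below them for MHC class II, cilium and ependyma genes.

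Against uninjured mice, the ratio of astrocyte to flow-through RNA differed for many genes. Of 18540 genes tested, 1098 (5.92%) had a higher ratio at 70 d and 2247 (12.1%) a lower one (FDR under 0.01, test of the difference of log2 ratios). Under total-count scaling the numbers were 1609 and 1363, so the higher genes were 32.8% of those called under TMM and 54.1% under total counts. The number lower fell to 1315 without the flow-through library of mouse 3 at 70 d and to 1429 without that of uninjured mouse 2. The median difference over all genes tested moved from −0.10 to 0.11 with the scaling. The test uses the same 70 d libraries as the comparison above. A ratio can change on either side, and levels within a fraction were not tested between groups of mice, so they are given as values. With 0.1 CPM added to each mean, of the genes with a higher ratio, 440 had astrocyte means at least 2-fold above uninjured and 384 had flow-through means at least 2-fold below. Of those with a lower ratio, 678 had flow-through means at least 2-fold above uninjured and 394 had astrocyte means at least 2-fold below.

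Astrocyte genes had lower ratios than in uninjured cord. Of 12 astrocyte markers, 10 had a lower ratio and none a higher one (median difference −1.72 on the log2 scale, against −0.10 over all genes). So did 12 of 15 endfoot genes and 10 of 12 uptake genes. Slc1a2 was at 14960.4 ± 2413 CPM in astrocyte libraries of uninjured mice and 5283 ± 698 CPM at 70 d, while its flow-through mean was 252 ± 23.5 CPM and 289 ± 20.2 CPM (SD, n = 4 each). The means differed on the astrocyte side (difference −1.94, standard error 0.19, edgeR adjusted p = 9.1e-07). Aqp4 had 3043 ± 422 CPM in uninjured and 2413 ± 663 CPM in 70 d astrocyte libraries, against 64.3 ± 10.9 CPM and 119 ± 23.1 CPM in flow-through (difference −1.47, standard error 0.27, edgeR adjusted p = 6.3e-04). Gfap means were higher at 70 d in both fractions, with 17895 ± 1741 and 37713 ± 2167 CPM in astrocyte and 1058 ± 153 and 2798 ± 751 CPM in flow-through libraries, and its ratio did not pass the threshold (difference −0.57, standard error 0.23, edgeR adjusted p = 0.076). Pygm had a lower ratio too (difference −2.28, standard error 0.20, edgeR adjusted p = 4.4e-07), as did the proteoglycan Ncan (difference −1.97, standard error 0.20, edgeR adjusted p = 2.0e-06).

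Among genes with a regular symbol, at least 10 counts in all 16 libraries and at least 10 CPM in the higher fraction, those whose ratio fell most were Apoc1, Gdf10, Cst7, Prss35, Egfr and Apoe. Apoe, the main lipid carrier of the brain, stood at 19393, 18100.2, 18141 and 21940.1 CPM in the 4 uninjured astrocyte libraries and 1189, 1155, 1236 and 1174 CPM in their flow-through, and at 33703, 37670.1, 54562 and 45393 CPM and 30038, 22817, 47445 and 49012 CPM at 70 d. The fractions overlapped at 70 d, whereas in uninjured cord every astrocyte library held over 10-fold more than any flow-through library (difference −4.08, standard error 0.30, edgeR adjusted p = 7.3e-08). Apoc1 had 21.3 ± 7.67 CPM in uninjured and 100.2 ± 24.8 CPM in 70 d astrocyte libraries, and 2.52 ± 0.679 CPM and 387 ± 112 CPM in flow-through (difference −5.28, standard error 0.39, edgeR adjusted p = 1.0e-07). Cst7, a cystatin of activated microglia, went from 0.394 ± 0.0831 to 85.1 ± 20.4 CPM in flow-through and from 0.221 ± 0.0671 to 3.00 ± 0.577 CPM in astrocyte libraries (difference −4.24, standard error 0.36, edgeR adjusted p = 2.6e-07). Gdf10, a growth factor of the TGF-beta family, and Egfr, the receptor of epidermal growth factor, had lower astrocyte and higher flow-through means at 70 d than in uninjured mice. Gdf10 went from 45.2 ± 1.74 to 12.4 ± 1.75 CPM in astrocyte and from 5.55 ± 0.282 to 38.6 ± 7.996 CPM in flow-through libraries (difference −4.91, standard error 0.20, edgeR adjusted p = 1.8e-10), and the difference of Egfr was −4.12. Prss35, a serine protease, had the same order of means (difference −4.21).

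By the same coverage rule, the genes whose ratio rose most were Ccn5, Cabp7, Chgb, Me3, Mgl2 and Adra1d. Ccn5, a secreted matrix-associated protein, was at 1.33, 1.74, 0.649 and 0.499 CPM in uninjured and 291, 331, 342 and 613 CPM in 70 d astrocyte libraries, against 11.4, 9.27, 8.11 and 4.84 CPM and 51.9, 51.0, 61.8 and 85.5 CPM in flow-through (difference 5.40, standard error 0.51, edgeR adjusted p = 1.3e-06). Every flow-through library held more of it than any astrocyte library in uninjured cord, and the reverse held at 70 d. Chgb, a granin of secretory granules, went from 44.4 ± 2.54 to 314 ± 98.4 CPM in astrocyte and from 373 ± 28.6 to 127 ± 20.7 CPM in flow-through libraries (difference 4.13, standard error 0.25, edgeR adjusted p = 1.5e-08). Me3, a mitochondrial malic enzyme, went from 4.31 ± 0.553 to 39.5 ± 5.05 CPM and from 30.6 ± 4.62 to 14.3 ± 1.75 CPM (difference 4.05, standard error 0.20, edgeR adjusted p = 1.2e-09). Cabp7, a calcium-binding protein, and Adra1d, an adrenergic receptor, likewise had higher astrocyte and lower flow-through means at 70 d (differences 4.25 and 3.44). Mgl2, a lectin of dendritic cells and macrophages, was at 0.679, 1.02, 0.355 and 0.307 CPM in uninjured and 9.88, 16.97, 14.5 and 7.26 CPM in 70 d astrocyte libraries (difference 3.84). Beside this, the pan-myeloid markers at 70 d had a mean of per-mouse medians of −1.67, against −2.91 in uninjured mice. Of these 16 markers, 3 had a higher ratio, against 5.92% of all genes tested. Their part in the level of Mgl2 was not tested.

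**Figure D4:**
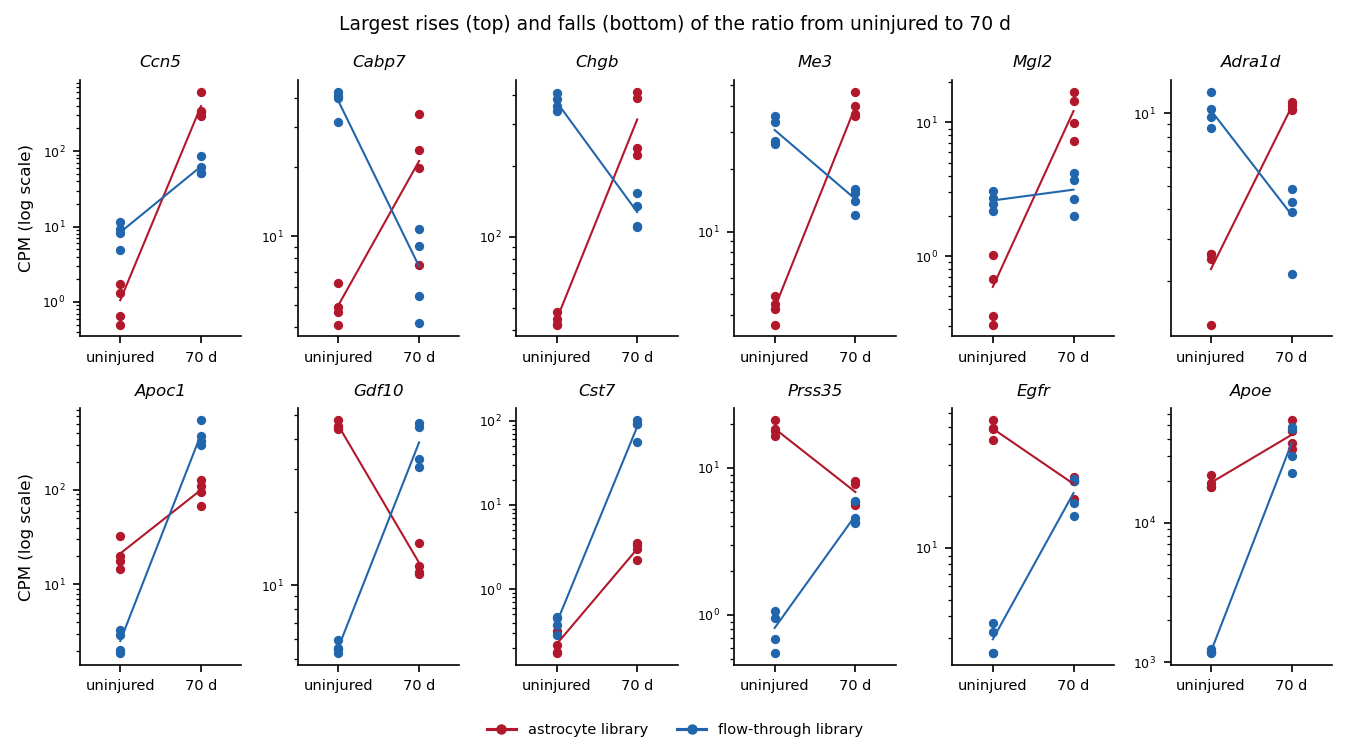
CPM on log axes of the 6 genes with the largest rise (top) and the 6 with the largest fall (bottom) of the astrocyte to flow-through ratio from uninjured to 70 d, each library a point (astrocyte red, flow-through blue, 4 per group) and lines joining group means. The mean lines of all 6 genes in the top row cross from flow-through on top to astrocyte on top, while those of Apoe and Apoc1 climb more steeply in flow-through.

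MHC class II and cilium genes had higher ratios at 70 d. Over all genes tested, 5.92% had a higher and 12.1% a lower ratio than in uninjured mice. Of 10 MHC class II genes, 6 had a higher ratio than in uninjured mice and none a lower one (median difference 2.22). Beside them, the mean of per-mouse medians was −0.82 in uninjured and 0.14 in 70 d mice for monocyte-derived macrophage markers, with 3 of 12 genes higher and 2 lower, and −2.91 and −1.67 for pan-myeloid markers, with 3 of 16 higher. Of 8 B and plasma cell markers, 1 had a higher ratio, and the part of these cells in the class II ratios was not tested. H2-Eb1 was at 13.8, 13.8, 3.67 and 4.72 CPM in uninjured and 346, 323, 391 and 356 CPM in 70 d astrocyte libraries, and at 32.5, 39.7, 16.4 and 15.0 CPM and 161, 93.1, 105 and 123 CPM in flow-through (difference 2.83, standard error 0.56, edgeR adjusted p = 0.0011). Of 15 cilium genes, 9 had a higher ratio (median difference 1.52), and of 6 ependyma markers 5 did. The lists share members, Foxj1 among them, so these counts are not separate. Tmem212, an ependymal marker, was at 0.131, 0.0642, 0 and 0 CPM in uninjured and 2.02, 1.77, 2.47 and 0.755 CPM in 70 d astrocyte libraries and at 2.64, 2.27, 2.31 and 2.50 CPM and 4.48, 4.10, 4.74 and 2.49 CPM in flow-through (difference 4.16, standard error 0.81, edgeR adjusted p = 9.2e-04). Its counts in uninjured astrocyte libraries were too few to give the size of this difference, and the gene was picked after its value was seen. Cfap126 went from 7.11 ± 0.846 to 72.9 ± 13.01 CPM in astrocyte and from 7.31 ± 1.13 to 22.1 ± 3.24 CPM in flow-through libraries (difference 1.52, standard error 0.21, edgeR adjusted p = 3.5e-05), and Foxj1 from 76.0 ± 6.85 to 205 ± 8.68 CPM and from 54.8 ± 3.86 to 47.9 ± 3.68 CPM (difference 1.38, standard error 0.12, edgeR adjusted p = 4.1e-07). Among the border genes, 5 had a higher and 9 a lower ratio. Igfbpl1 was at 0.416, 0.214, 0.142 and 0.512 CPM in uninjured astrocyte libraries and 32.0, 65.9, 71.6 and 113 CPM at 70 d (difference 3.34, standard error 0.61, edgeR adjusted p = 6.2e-04), and Tgm1, Cdsn, Hspb1 and Cryab were the others (2.54, 2.78, 1.76 and 0.79). With edgeR's newer fit (legacy=FALSE) the difference of Tgm1 missed the threshold (edgeR adjusted p = 0.016). C4b, a complement component, had a lower ratio (difference −1.69, standard error 0.20, edgeR adjusted p = 7.9e-06) with means of 224 ± 35.9 and 682 ± 18.1 CPM in astrocyte and 44.3 ± 8.17 and 366 ± 54.4 CPM in flow-through libraries of uninjured and 70 d mice. Lgals3, Cd44, Lxn and A2m also had lower ratios (−2.29, −1.54, −1.32 and −1.30).

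Of 13 mitochondrial protein genes, 10 had a lower ratio at 70 d than in uninjured mice (median difference −1.90), with ND6 at 249 ± 83.1 and 42.0 ± 9.001 CPM in astrocyte and 2357 ± 251 and 1698 ± 146 CPM in flow-through libraries of uninjured and 70 d mice (difference −2.34, standard error 0.28, edgeR adjusted p = 8.0e-06). Of 19 fibrotic matrix genes 5 had a lower ratio and of 13 basement membrane genes 6, with none higher in either list, where the share over all genes was 12.1%. Neuron, endothelium and neutrophil markers held no gene past the threshold of the difference.

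Between 42 and 70 d, no gene passed the threshold for a change of the ratio. Of 18245 genes tested, 0 had a higher and 0 a lower ratio at FDR under 0.01 by edgeR's quasi-likelihood test, and the smallest adjusted p was 0.65. At an unadjusted p under 0.05 there were 1042 genes (5.71%). DESeq2 also called 0 genes at FDR under 0.01, with 1170 genes (6.42%) at an unadjusted p under 0.05. With mice as a block, edgeR called 0 genes too, but 1678 genes (9.2%) had an unadjusted p under 0.05. Astrocyte markers averaged 3.64 ± 0.39 at 42 d and 3.68 ± 0.21 at 70 d (mean of per-mouse medians, SD, n = 4 each), and MHC class II genes 1.00 ± 0.33 and 1.01 ± 0.26. Gfap was at 33099, 35372, 35873 and 35149.9 CPM in the 42 d and 38785, 34678, 39645 and 37743 CPM in the 70 d astrocyte libraries. These values do not show that the ratios were equal.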

How the data were processed

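Spinal cord RNA of 12 female Aldh1l1-CreERT2-RiboTag mice (4 each at 70 d after SCI, at 42 d and uninjured) was sequenced as an astrocyte and a flow-through library per mouse, 24 libraries in all. Per the labels and the study's methods, the libraries were poly-A selected and read in pairs, and the authors ran Trimmomatic, HISAT2 (mm10) and featureCounts and deposited whole-number counts per gene. The counter was run with default parameters, which ignore strand and leave out multi-mapped reads, so overlapping genes, antisense genes and near-identical copies are uncertain. Of 27179 gene identifiers, 25275 matched a symbol in RefSeq (GRCm38.p6).

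From these counts, edgeR 4.0.16 (R 4.3.3) fitted a quasi-likelihood model with TMM factors and its default low-count filter. The comparison at 70 d used its 8 libraries (FDR under 0.01, at least 2-fold), and the differences from uninjured and from 42 d each used 16 libraries and tested the interaction of fraction and group (FDR under 0.01). CPM values come from one scaling over the 24 libraries. Per-mouse ratios used a prior count of 2. The series' design gives 2 RNA samples per animal, so equal numbers mark the same mouse: deviations of same-numbered libraries from their group means correlated at 0.296 to 0.465 at 70 d, 0.291 to 0.474 in uninjured mice and 0.0997 to 0.588 at 42 d, where mouse 4 correlated less with its own number (0.176) than with another (0.215). The study's methods state no block, so the fits had none, and a mouse block was an alternative, with RLE scaling, total counts alone, other filters, DESeq2 1.42.0, another edgeR fit (legacy=FALSE) and the removal of each library. No library was a copy of another. Scripts were tested on simulated data. In them, 100 well-covered genes per fold were changed, all other genes had equal means in both fractions, and there was no mouse effect. Of the 2-fold changes at 70 d, 55% were recovered at FDR under 0.01, 29% of those against uninjured and 16% against 42 d. Of 4-fold changes, 90%, 80% and 70% were recovered, in that order. The measured libraries differ in these settings, so the shares need not hold for them.

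Members and gene lists were chosen with earlier results of these data known. Named genes are, at FDR under 0.01, the 8 highest and 8 lowest ratios with a regular symbol, at least 10 counts in all 8 libraries and 10 CPM in the higher fraction. They also include the 5 enriched genes with the highest CPM per kb, up to 3 genes per list and direction, the 26 border genes named by the study and the 6 largest rises and falls against uninjured mice with the same coverage over the 16 libraries of that fit. Aldh1l1, H2-DMb1, Tmem212 and Pifo fall outside this rule. Some genes that meet it are not reported here.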

Additional observations from a re-analysis of the deposited data

Results flagged for a closer look

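The 4 mice at 70 d were searched for one whose ratio stood apart, by the gap to its nearest neighbour over the whole range (Dixon's test at the 95% level). Of 178 values tested, 6 passed, where chance flags about 1 in 20 groups. Mouse 1 was the lowest for Acan (gap over range 0.901), with a per-mouse log2 ratio of −5.74 against −3.99 to −3.80 in the other mice, and for the median of neuron markers (0.868), with −4.38 against −4.13 to −4.09. Mouse 1 was also the highest for Igf1 (0.864), at −1.16 against −1.95 to −1.84, and the lowest for Ppp1r3g (0.931), at 3.63 against 3.91 to 3.93. Mouse 2 was the highest for Cryab (0.869), at 1.15 against 0.63 to 0.69, and the lowest for Gpc5 (0.856), at 3.42 against 4.14 to 4.26.

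The ratio of astrocyte to flow-through RNA differed between 70 d and uninjured mice by a test of the difference itself in edgeR, higher for 1098 genes and lower for 2247. Among genes with a regular symbol, at least 10 counts in all 16 libraries and 10 CPM in the higher fraction, the largest rises on the log2 scale were 5.40 for Ccn5, 4.25 for Cabp7, 4.13 for Chgb, 4.05 for Me3, 3.84 for Mgl2 and 3.44 for Adra1d. The largest falls were −5.28 for Apoc1, −4.91 for Gdf10, −4.24 for Cst7, −4.21 for Prss35, −4.12 for Egfr and −4.08 for Apoe.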

How the results depend on the processing

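The numbers of genes higher and lower in astrocyte libraries at 70 d (2413 and 3021) were 1417 and 4638 with library totals alone and ranged from 2271 to 2427 and from 2728 to 3011 when 1 library was left out. The number with a higher ratio than in uninjured mice (1098) was 1866 with DESeq2 and 1911 at FDR under 0.05, and ranged from 849 to 1498 without 1 library. The number with a lower ratio (2247) was 1363 with library totals alone and ranged from 1315 to 2485 without 1 library. Against 42 d, 0 genes were called in either direction in every setting run but 1, in which 2 had a higher ratio (without the astrocyte library of mouse 1 at 42 d). DESeq2 gave 13 such genes at FDR under 0.05. The cause of these differences was not tested.

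With the replicate block, which pairs the libraries of a mouse, 2431 genes were higher and 3119 lower at 70 d, of which 2351 and 2913 were shared with the fit without it. Against uninjured mice it gave 1517 and 2884. Among named genes at 70 d it changed the call of Tmem212 (−1.27, edgeR adjusted p = 9.9e-04) and of no other.

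Of 138 named ratios at 70 d, 2 that were not called changed sign: Lgals3 (−0.21 with library totals alone) and H2-DMb1 (from −0.20 to 0.097 without 1 library). Leaving out identifiers without a symbol, chosen after seeing the data, kept every count within 1.5 times.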
